A study of Mus musculus with 27 samples.

Results

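The class I antigen presentation pathway and the immunoproteasome were followed through 10 genes, taken by symbol from a table of 51789 gene IDs of mouse ovary: the light chain B2m, the heavy chains H2-K1 and H2-D1, the peptide transporter and loading genes Tap1, Tap2 and Tapbp, the inducible proteasome subunits Psmb8, Psmb9 and Psmb10, and the transactivator Nlrc5. All 10 symbols were found once, through GENCODE M21. The 27 libraries were 3' tag counts of polyA RNA from ovaries, and the numbered replicates of a group are taken here as separate mice. In experiment 1 there were 4 aged mice given TRi-1 (a compound that inhibits thioredoxin reductase 1), 4 untreated aged mice and 5 untreated young mice. In experiment 2 there were 4 aged mice given auranofin (a gold compound that acts on thioredoxin reductases), 5 untreated aged mice and 5 untreated young mice. Ages, strain, dose, route and length of treatment are not given in the labels, and the untreated groups of each experiment carry the label control. Levels are given as CPM, the count of a gene scaled to a common, TMM-normalised library size.

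Class I molecules carry peptides from the inside of nearly every nucleated cell to its surface, where CD8 T cells and natural killer cells read them. The proteasome cuts proteins into such peptides, and in cells exposed to interferon gamma the catalytic subunits encoded by Psmb5, Psmb6 and Psmb7 give way to inducible ones, Psmb8 for Psmb5, Psmb9 for Psmb6 and Psmb10 for Psmb7. Tap1 and Tap2 form the pump that brings peptides into the endoplasmic reticulum, Tapbp (tapasin) holds the empty heavy chain next to it, and B2m completes the molecule. NLRC5 works in the nucleus at the promoters of class I genes. In the ovary these genes are expressed by resident and infiltrating leukocytes as well as by stromal and endothelial cells.

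Of the members, 7 lie in the major histocompatibility complex on chromosome 17 in GRCm38: Tapbp (33915899-33929292), H2-K1 (33996017-34000347), Psmb9 (34181987-34187764), Tap1 (34187553-34197225), Psmb8 (34197721-34201454), Tap2 (34203527-34216321) and H2-D1 (35262730-35267499). B2m is on chromosome 2 (122147686-122153083), and Psmb10 (105935735-105938444) and Nlrc5 (94434356-94527272) are on chromosome 8. Tap1 and Psmb9 are transcribed away from each other with RefSeq starts 226 bases apart, so that they share most of an upstream region. RefSeq promoter windows of GRCm38.p6, from 250 bases before to 50 bases after a start, were at hand for 8 of the 10 members, all but Tap2 and Nlrc5. The 230 bases before the start are shown for B2m (chr2:122147457-122147686, plus strand), H2-K1 (chr17:34000334-34000563, minus strand), H2-D1 (chr17:35262864-35263093, plus strand) and Tap1 (chr17:34187326-34187555, plus strand), because these carry the class I molecule itself and the region shared with Psmb9. Capitals mark matches, on either strand, to the letters listed after them.
B2m: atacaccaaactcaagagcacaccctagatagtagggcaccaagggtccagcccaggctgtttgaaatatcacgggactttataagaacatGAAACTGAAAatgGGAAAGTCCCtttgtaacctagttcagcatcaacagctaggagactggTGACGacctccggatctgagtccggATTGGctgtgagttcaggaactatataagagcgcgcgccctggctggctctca
H2-K1: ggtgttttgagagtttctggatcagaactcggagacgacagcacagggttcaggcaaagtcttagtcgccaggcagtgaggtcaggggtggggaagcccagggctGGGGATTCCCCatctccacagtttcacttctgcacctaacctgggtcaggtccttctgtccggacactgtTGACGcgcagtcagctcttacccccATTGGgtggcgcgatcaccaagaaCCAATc
H2-D1: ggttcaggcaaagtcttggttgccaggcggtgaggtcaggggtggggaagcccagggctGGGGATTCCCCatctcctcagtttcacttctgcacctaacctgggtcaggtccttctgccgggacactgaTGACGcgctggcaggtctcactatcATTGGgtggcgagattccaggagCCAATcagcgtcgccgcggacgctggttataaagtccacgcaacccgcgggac
Tap1: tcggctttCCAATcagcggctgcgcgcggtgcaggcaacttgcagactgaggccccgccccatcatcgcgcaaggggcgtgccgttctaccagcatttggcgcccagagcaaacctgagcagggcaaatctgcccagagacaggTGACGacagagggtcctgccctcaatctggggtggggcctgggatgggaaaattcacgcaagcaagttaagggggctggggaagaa
The searched letters were the interferon-stimulated response element TTTCNNTTTC, the interferon gamma activated site TTCNNNGAA, the NF-kB consensus, CCAAT and TGACG, each on both strands. TTTCNNTTTC was in 1 of the 8 windows (B2m, 139 bases before the start) and in 3.44% of all 32851 windows of that length. TTCNNNGAA was in 1 of 8 (Psmb8, 97 bases before the start) and in 8.3% of all windows. The NF-kB consensus was in 3 of 8, B2m, H2-K1 and H2-D1, and in 8.46% of all windows. In H2-K1 and H2-D1 the matches overlapped each other on both strands. CCAAT was in 6 of 8 and in 37.4% of all windows, and TGACG in 5 of 8 and in 20.8%, and for each of these a single site in the shared region was counted for both Tap1 and Psmb9. Only matches to these letters were counted, and variant forms of a motif were not searched. These matches describe the letters in the windows and say nothing of which factor was bound in these ovaries.

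Library totals ran from 6460903 to 14814381 counts. Markers of neighbouring tissue were present in uneven amounts: the 3 oviduct markers summed to between 281 and 4186 CPM and the 4 adipocyte markers to between 88.6 and 10592 CPM, most in the auranofin-treated ovary of replicate 4. Oocyte markers summed to between 0.899 and 11.5 CPM in aged ovaries, against 4.11 to 246 CPM in young ovaries. The granulosa cell marker Amh had no count in any aged group, nor in young ovaries of experiment 2, and Fshr had none in untreated aged ovaries of both experiments and in auranofin-treated ovaries. Both were near the floor in young ovaries of experiment 1 too, at up to 1 and 6 counts per library. All 8 granulosa markers summed to 44.5 to 139 CPM in untreated aged and 357 to 1026 CPM in young ovaries of experiment 1. In experiment 2 these sums overlapped, at 20.5 to 534 and 78.2 to 1006 CPM. They were 66.5 to 1377 CPM with TRi-1 and 25.3 to 677 CPM with auranofin. Haemoglobin genes took 9.52% to 22.7% of counts in untreated aged and 1.87% to 8.19% in young ovaries of experiment 1, and 0.289% to 5.61% in experiment 2.

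Most members were higher in aged than in young ovaries in both experiments. In experiment 1, 9 of 10 members were higher in untreated aged than in young ovaries at an adjusted p under 0.05 (edgeR, adjusted over 16028 genes), where 18.5% of all tested genes were higher and 16.4% lower. Their median log2 fold change was 2.17, against 0.02 over all tested genes. In experiment 2, 7 of 10 members were higher, where 5.86% of 16309 tested genes were higher and 4.59% lower, with a member median of 1.70 against -0.03. In 8 members of experiment 1 and 7 of experiment 2 every aged library lay above every young library, which held for 13% and 6.12% of 17484 genes. No member was lower with age in either experiment.

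**Figure D1:**
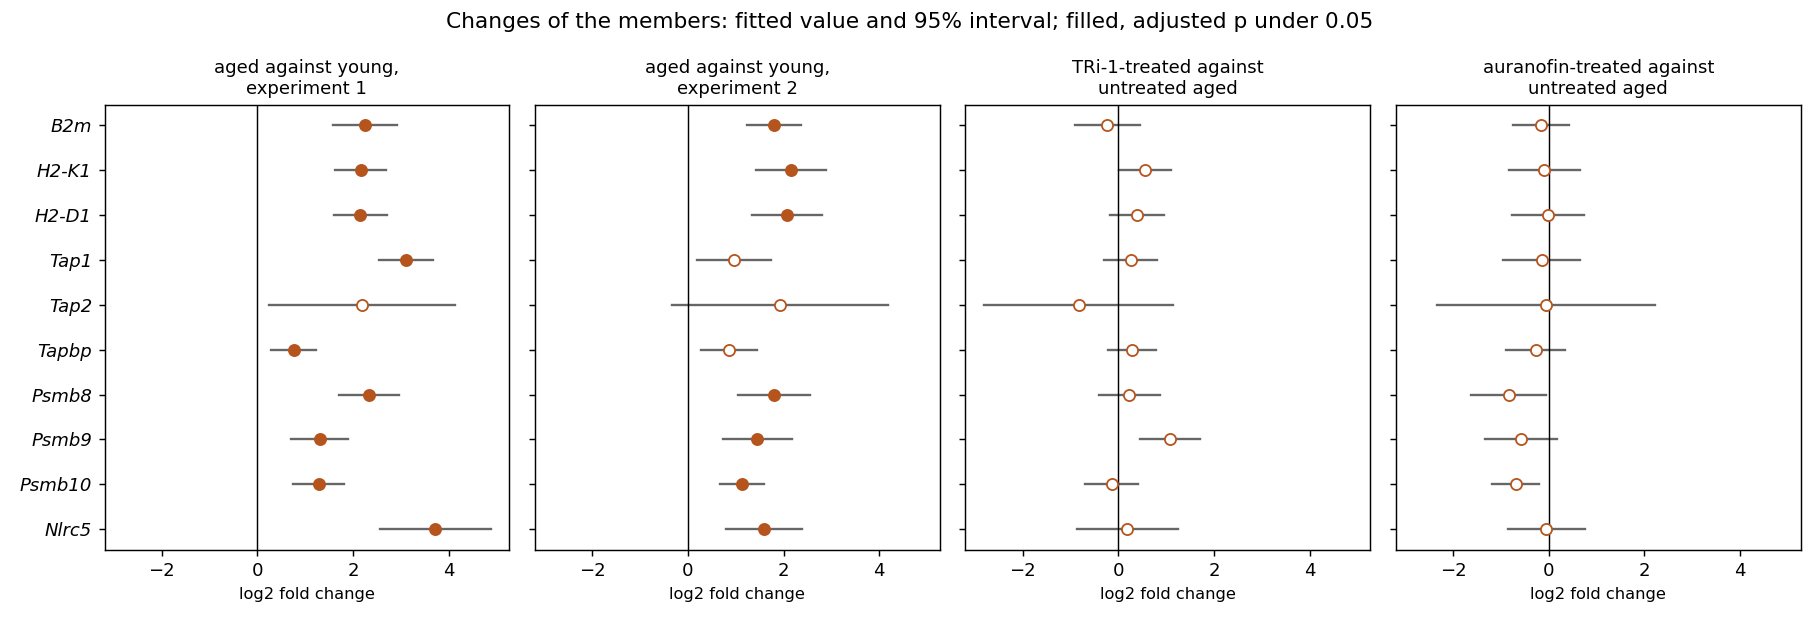
Log2 fold change of each member (points) with its 95% interval (lines) in 4 comparisons, from left to right aged against young in experiments 1 and 2, TRi-1-treated against untreated aged and auranofin-treated against untreated aged. Filled points passed an adjusted p of 0.05: 9 and 7 members in the age panels and none in the treatment panels.

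B2m encodes the light chain shared by all classical class I molecules. In experiment 1 it was at 2914, 9047, 10619.7 and 6167 CPM in untreated aged ovaries, against 1456, 1558, 1488, 1358 and 1804 CPM in young ovaries. Experiment 2 had it at 3146, 3261, 4482, 5095 and 4502 CPM in untreated aged ovaries, against 967, 1056, 1653, 1172 and 1037 CPM in young ovaries. All aged libraries were above all young ones in both experiments, and the aged ovary of replicate 1 in experiment 1 was the lowest of its group. B2m had a log2 fold change of 2.24 ± 0.31 (SE, adjusted p = 6.48e-05) in experiment 1 and 1.80 ± 0.27 (adjusted p = 0.000746) in experiment 2.

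H2-K1 and H2-D1 are the classical heavy chains that bind the peptide. H2-K1 was at 620.3, 511, 665 and 692 CPM in untreated aged ovaries of experiment 1, against 182, 119, 85.7, 156 and 162 CPM in young ovaries. Its level in experiment 2 was 836, 547, 977, 822 and 829 CPM in untreated aged ovaries, against 223, 70.7, 244, 193 and 172 CPM in young ovaries. No aged library reached down to a young one in either experiment, and the young ovary of replicate 2 in experiment 2 stood below the rest of its group. The change was 2.16 ± 0.25 (adjusted p = 1.47e-05) and 2.16 ± 0.34 (adjusted p = 0.00108) on the log2 scale in experiments 1 and 2. H2-D1 averaged 582 ± 100.5 CPM in untreated aged and 132 ± 37.8 CPM in young ovaries of experiment 1 (SD, n = 4 and 5), a log2 fold change of 2.15 ± 0.26 (adjusted p = 1.94e-05). In experiment 2 it averaged 687 ± 157 CPM in untreated aged and 164 ± 60.4 CPM in young ovaries (n = 5 each), a log2 fold change of 2.08 ± 0.35 (adjusted p = 0.00149). The log2 ratio of H2-K1 to H2-D1 counts within a library differed between aged and young ovaries by 0.00 in experiment 1 and 0.12 in experiment 2 (exact permutation test, two-sided, p = 0.984 and 0.484). Of the 451 stretches of 50 bases in the last 500 bases of the longest coding transcript, 2 of H2-K1 and 43 of H2-D1 also occurred in transcripts of other genes, and none did for the other 8 members.

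**Figure D2:**
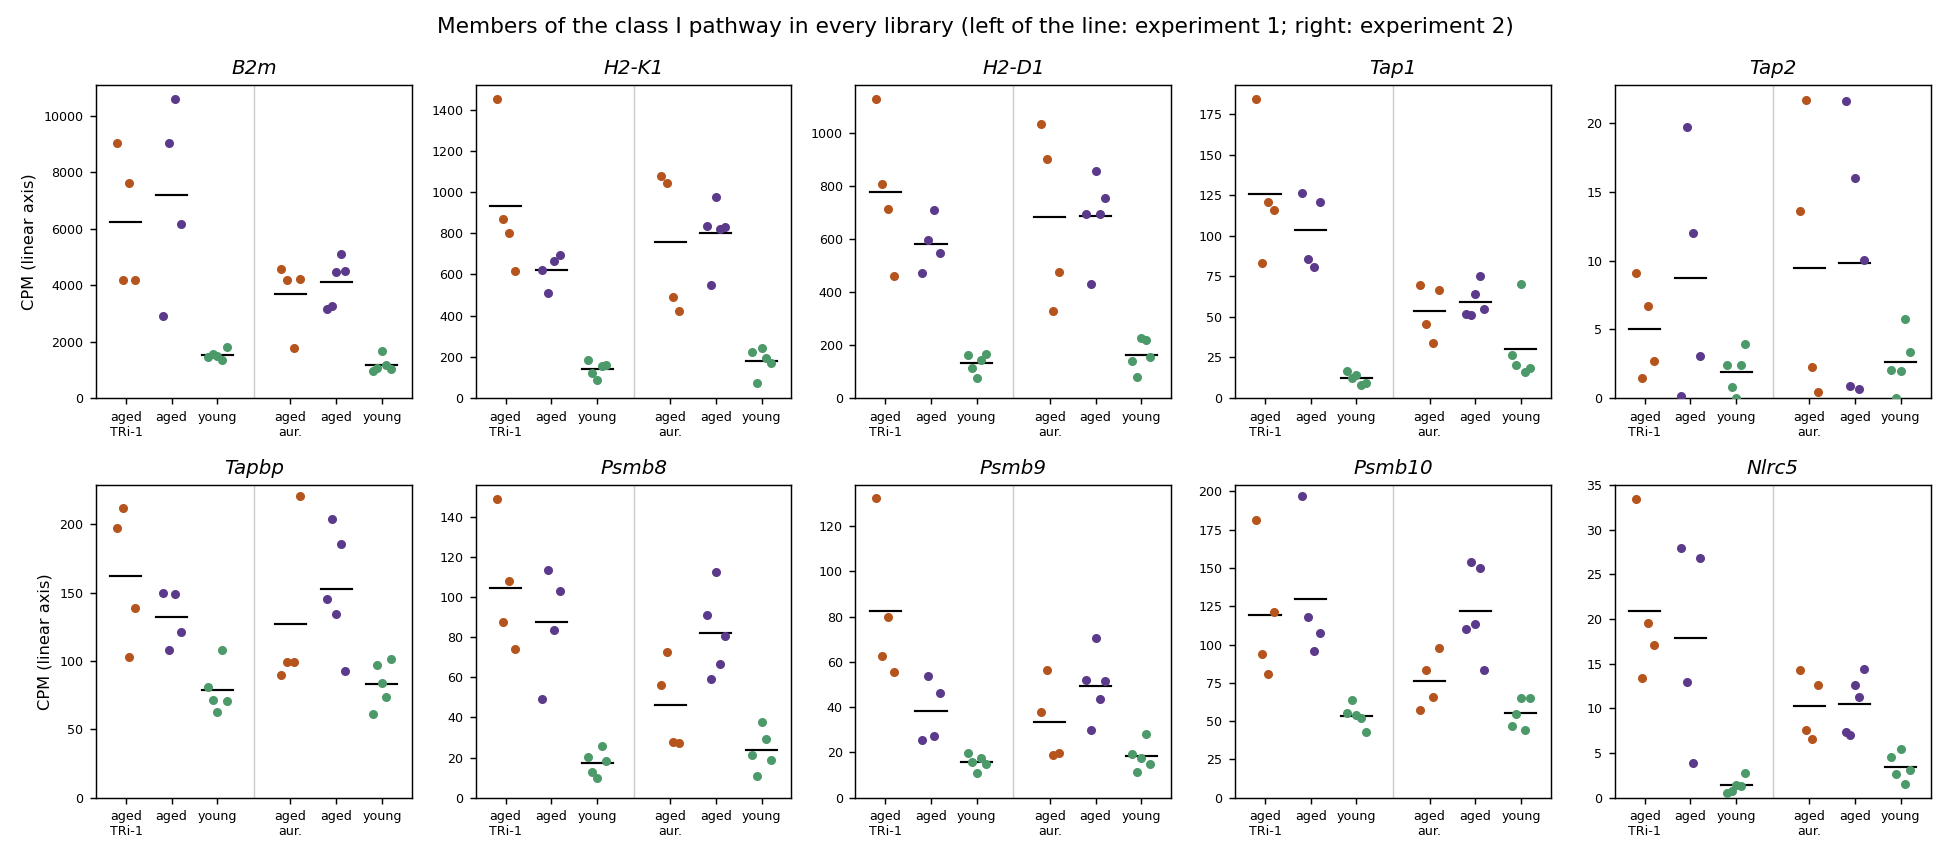
CPM of the 10 members in every library (points, linear axes that start at 0) with the group mean (bars). In each panel experiment 1 is left of the line (TRi-1-treated aged, untreated aged, young) and experiment 2 right of it (auranofin-treated aged, untreated aged, young). The young libraries are at the bottom of most panels, and Tap2 spreads from near 0 upwards within each aged group.

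Tap1, the first subunit of the peptide pump, had the smallest p of the members in experiment 1. It was at 126, 85.5, 80.8 and 121 CPM in untreated aged ovaries of experiment 1, against 16.9, 12.1, 14.1, 8.01 and 9.34 CPM in young ovaries. In experiment 2 it was at 51.9, 51, 64, 75 and 55 CPM in untreated aged ovaries, against 26.8, 20.2, 70.3, 15.8 and 18.5 CPM in young ovaries. The groups were far apart in experiment 1, whereas in experiment 2 the young ovary of replicate 3 lay above 4 of the 5 aged libraries. Tap1 had a log2 fold change of 3.11 ± 0.27 (adjusted p = 2.43e-06) in experiment 1 and 0.97 ± 0.36 (adjusted p = 0.113) in experiment 2. That young library had the highest sum of oviduct, adipocyte and hepatocyte marker RNA of its group. It was also the highest of its group for B2m, H2-K1, H2-D1, Psmb8, Psmb10 and Nlrc5, but not for Tap2, Tapbp and Psmb9. Without it, the change of Tap1 in experiment 2 was 1.54 (adjusted p = 0.00132).

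Tap2, the second subunit of the pump, was the weakest measured of the members. It had 1, 193, 128 and 36 counts in untreated aged ovaries of experiment 1, against 21, 5, 0, 20 and 27 counts in young ovaries. In experiment 2 it had 334, 10, 188, 7 and 122 counts in untreated aged ovaries, against 20, 0, 17, 59 and 39 counts in young ovaries. Both age comparisons held aged libraries with fewer counts than most young ones, and single libraries moved the fitted value in experiment 1: it was 2.60 (adjusted p = 0.0182) without the untreated aged ovary of replicate 1 and 1.40 (adjusted p = 0.288) without that of replicate 2. The log2 fold change was 2.19 ± 0.92 (adjusted p = 0.0760) in experiment 1 and 1.93 ± 1.06 (adjusted p = 0.305) in experiment 2. Its SD of log2 CPM within groups was 2.06, where the other members ranged from 0.36 to 0.75. Tap2 followed the first component of the variation within groups, computed over 11334 genes that are not members and holding 27.8% of that variation. Its correlation with the component was 0.89 over the 27 libraries, where both measures come from the same libraries. For the other members this correlation was 0.72 (Psmb8), 0.71 (Psmb9), 0.64 (H2-K1), 0.57 (H2-D1), 0.17 (B2m), -0.18 (Nlrc5), -0.30 (Tap1), -0.49 (Psmb10) and -0.54 (Tapbp). With this component as a covariate, a fit chosen after seeing the data, the change of Tap2 in experiment 1 was 1.98 (adjusted p = 0.00615). The share of all genes called in that fit is not given here. What sets the component was not tested.

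Tapbp encodes tapasin, which bridges the pump and the empty heavy chain. It was at 150.0, 108, 149 and 121 CPM in untreated aged ovaries of experiment 1, against 80.8, 71.3, 62.5, 108 and 70.5 CPM in young ovaries. Experiment 2 had it at 145, 204, 134, 186 and 93 CPM in untreated aged ovaries, against 61, 96.8, 83.7, 73.9 and 101 CPM in young ovaries. A single aged library lay within the young range in each experiment. The log2 fold change was 0.76 ± 0.22 (adjusted p = 0.0140) in experiment 1, the smallest of the members, and 0.87 ± 0.28 (adjusted p = 0.0571) in experiment 2. Single libraries decided these calls: the adjusted p in experiment 1 was 0.0518 without the aged ovary of replicate 3, and that in experiment 2 was 0.0373 without the aged ovary of replicate 5. Tapbp overlaps Zbtb22 over 3422 bases of the same strand (76 to 485 counts per library), so that reads there could have been counted for either gene.

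Psmb8 encodes the inducible subunit with chymotrypsin-like activity. It was at 49.4, 114, 83.5 and 103 CPM in untreated aged ovaries of experiment 1, against 20.2, 12.7, 10, 25.9 and 18.5 CPM in young ovaries. Its level in experiment 2 was 91, 59.1, 113, 66.7 and 80.6 CPM in untreated aged ovaries, against 21.6, 10.7, 37.9, 29.3 and 19 CPM in young ovaries. Aged and young ovaries did not overlap in either experiment. The log2 fold change was 2.34 ± 0.30 (adjusted p = 3.06e-05) in experiment 1 and 1.80 ± 0.35 (adjusted p = 0.00414) in experiment 2. Psmb9 averaged 38.3 ± 14 CPM in untreated aged and 15.8 ± 3.2 CPM in young ovaries of experiment 1, a log2 fold change of 1.3 ± 0.28 (adjusted p = 0.00225). Its mean in experiment 2 was 49.6 ± 14.7 CPM in untreated aged and 18.2 ± 6.31 CPM in young ovaries, a log2 fold change of 1.45 ± 0.34 (adjusted p = 0.0119). Both Psmb9 comparisons were free of overlap, with the lowest aged ovary of experiment 2 at 30.0 CPM and the highest young one at 28.2 CPM. Psmb10, the inducible subunit with trypsin-like activity, averaged 129.5 ± 45.7 CPM in untreated aged and 53.6 ± 7.57 CPM in young ovaries of experiment 1 and 122 ± 29.5 CPM in untreated aged and 55.2 ± 9.83 CPM in young ovaries of experiment 2. Its log2 fold change was 1.28 ± 0.25 (adjusted p = 0.000938) in experiment 1 and 1.14 ± 0.22 (adjusted p = 0.00311) in experiment 2, again with no overlap. Tap1 and Psmb9 overlap by 212 bases on opposite strands, at the start of both genes, whereas the libraries were counts of 3' tags. Since the strand used in counting is not stated, any reads within these bases may belong to either gene.

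No constitutive partner passed the test with age. Psmb5 averaged 194 ± 38.9 CPM in untreated aged and 147 ± 23 CPM in young ovaries of experiment 1 (adjusted p = 0.0849), and 171 ± 21.3 CPM in untreated aged and 184 ± 74.8 CPM in young ovaries of experiment 2 (adjusted p = 0.838). Psmb6 and Psmb7 had adjusted p of 0.717 and 0.243 in experiment 1 and 0.849 and 0.905 in experiment 2. Within single libraries, the log2 ratio of Psmb8 to Psmb5 counts was -2.11, -0.49, -1.52 and -0.68 in untreated aged ovaries of experiment 1, against -2.98, -3.53, -4.08, -2.49 and -2.57 in young ovaries. The ratios in experiment 2 were -0.75, -1.71, -0.38, -1.52 and -1.06 in untreated aged ovaries, against -2.73, -3.90, -3.06, -2.27 and -3.06 in young ovaries. The ratio was higher in every aged library than in any young one, by 1.93 in experiment 1 and 1.92 in experiment 2 (exact permutation test, two-sided, p = 0.0159 and 0.00794, each 0.0952 after adjustment over 30 ratio tests). The ratio of Psmb9 to Psmb6 was higher by 1.37 in aged ovaries of experiment 1 and by 1.56 in those of experiment 2 (exact p = 0.0317 and 0.0238, each 0.119 after adjustment), with overlapping groups. The ratio of Psmb10 to Psmb7 was higher by 1.96 and 1.10 (exact p = 0.0476 and 0.127, adjusted 0.159 and 0.330). In experiment 1 the aged ovary of replicate 1 was at 2.53 and the others between -0.50 and 0.40, and without it the difference was 1.28 (exact p = 0.107). Leaving out single libraries there gave 1.28 to 2.29, and 8 of 9 such tests lost the unadjusted p under 0.05. For Psmb9 to Psmb6 it was lost in 7 of 9 tests in experiment 1 and in 0 of 10 in experiment 2. None of the 30 ratio tests passed an adjusted p of 0.05. Since 3' tags of different genes are recovered unequally, only differences of a ratio between groups are read here, not its level.

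**Figure D3:**
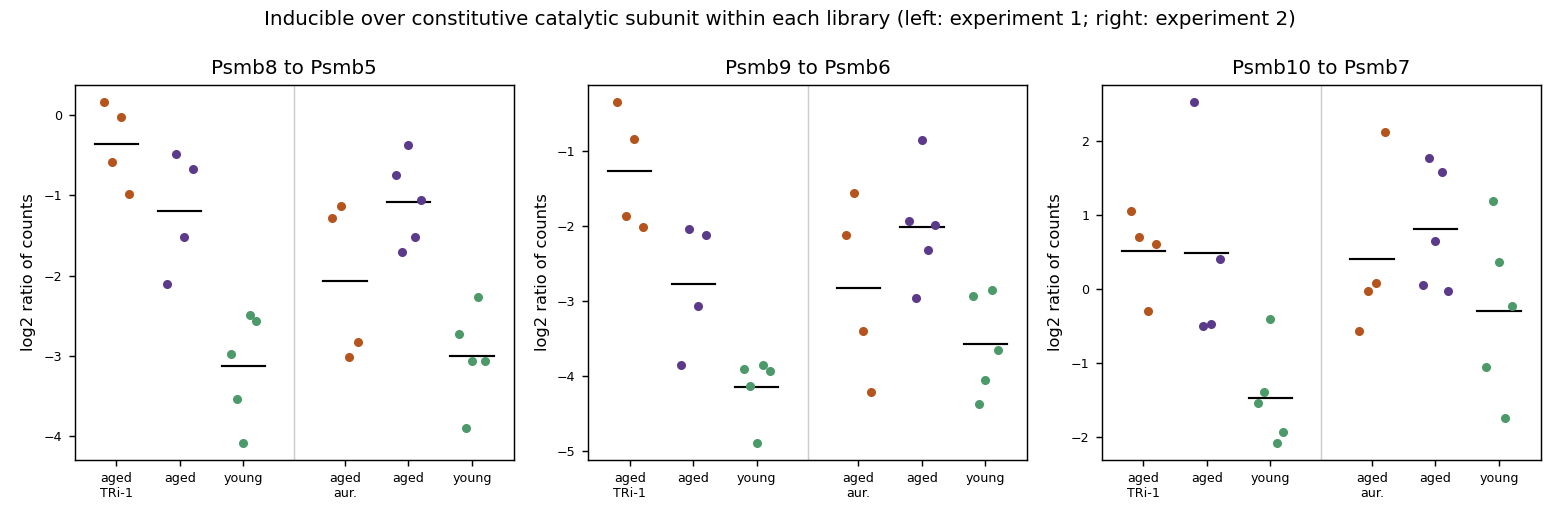
Log2 ratio of the counts of an inducible proteasome subunit to those of its constitutive partner in every library (points) with the group mean (bars), for Psmb8 to Psmb5, Psmb9 to Psmb6 and Psmb10 to Psmb7. Experiment 1 is left of the line (TRi-1-treated aged, untreated aged, young) and experiment 2 right of it (auranofin-treated aged, untreated aged, young). Psmb8 to Psmb5 separates all untreated aged from all young libraries. Psmb9 to Psmb6 separates TRi-1-treated from untreated aged libraries by a small margin, between -2.01 and -2.04.

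Nlrc5, whose product is a transactivator of class I genes, was a low-count gene. It was at 28, 13, 3.93 and 26.9 CPM in untreated aged ovaries of experiment 1, against 0.566, 0.775, 1.48, 1.31 and 2.77 CPM in young ovaries, with 42 to 320 counts and 5 to 19 counts. Experiment 2 had it at 7.31, 7.02, 12.7, 11.3 and 14.4 CPM in untreated aged ovaries, against 4.61, 2.63, 5.48, 1.55 and 3.15 CPM in young ovaries. All aged libraries were above all young ones. The log2 fold change was 3.72 ± 0.55 (adjusted p = 0.000102) in experiment 1, the largest fitted value of the members, and 1.59 ± 0.37 (adjusted p = 0.0122) in experiment 2.

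The size of the age effect was compared between experiments in 1 fit of all 27 libraries. No member differed at an adjusted p of 0.05, and 0% of 17484 genes did, while 2 members and 2067 of all genes had an unadjusted p under 0.05. The fitted change of Tap1 was smaller in experiment 2 than in experiment 1, by a log2 difference of -2.13 ± 0.47 (edgeR, adjusted p = 0.0860), and that of Nlrc5 by one of -2.11 ± 0.66 (edgeR, adjusted p = 0.200). DESeq2 called Tap1 (log2 difference -2.11, adjusted p = 0.00811) and 0.984% of all genes, and Tap1 was also called by the edgeR fit without the young ovary of replicate 4 of experiment 2 (-2.29, adjusted p = 0.0443) and that with the within-group component (-2.10, adjusted p = 0.0114). The component came from these same libraries, and the shares of all genes called by these edgeR fits are not given here. Over all fits that left out 1 library the difference ran from -2.29 to -1.55 with an adjusted p of up to 0.163, and it was -1.55 (adjusted p = 0.127) without the young ovary of replicate 3 of experiment 2. For H2-K1 and H2-D1 the 95% intervals of the difference ran from -0.88 to 0.90 and from -0.98 to 0.84.

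The counts in the other gene lists stand beside shares of 34.9% of all tested genes called in either direction with age in experiment 1 and 10.5% in experiment 2. Among other class I and class I-like heavy chains, 5 of 14 tested rose in experiment 1 and 4 of 14 in experiment 2, and none fell (median log2 fold change 0.99 and 0.96). H2-Q7, a non-classical heavy chain, averaged 108 ± 22.1 CPM in untreated aged and 9.05 ± 3.51 CPM in young ovaries of experiment 1, a log2 fold change of 3.59 ± 0.34 (adjusted p = 4.36e-06), and changed by 2.90 ± 0.48 (adjusted p = 0.00149) in experiment 2. H2-Q6 and H2-Q4 were the others to rise in experiment 2 with H2-M2 (3.35 ± 0.86 and 2.35 ± 0.70, adjusted p = 0.0203 and 0.0435). There H2-Q6 had 10 to 53 counts per library in untreated aged and 0 to 4 in young ovaries, and H2-Q4 28 to 90 and 2 to 28. In experiment 1 H2-Q6 was not called (1.06 ± 0.73, edgeR, adjusted p = 0.284). Sharing of 3' sequence with other genes was checked for the members only. H2-M2 changed by 4.51 ± 0.47 (adjusted p = 7.41e-06) and 5.95 ± 0.72 (adjusted p = 0.000184), and Hfe, whose product limits iron uptake, by 1.47 ± 0.22 (adjusted p = 0.000108) in experiment 1. Of 11 loading chaperones and peptidases, 1 rose and 3 fell in experiment 1 and 1 rose in experiment 2, close to the shares over all genes. The tapasin-related Tapbpl rose in both (0.79 ± 0.29 and 0.89 ± 0.25, adjusted p = 0.0428 and 0.0300), and the cytosolic peptidase Tpp2 (-1.43 ± 0.24, adjusted p = 0.000263), the disulfide isomerase Pdia3 (-1.08 ± 0.19, adjusted p = 0.000416) and the aminopeptidase Lnpep (-2.07 ± 0.68, adjusted p = 0.0265) fell in experiment 1.

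Of 14 constitutive 20S subunits, none rose and 7 fell in experiment 1, and 1 fell in experiment 2 (median -0.72 and -0.12, against 0.02 and -0.03 over all tested genes). Psmb3 had a log2 fold change of -2.10 ± 0.26 (adjusted p = 2.41e-05), Psma4 of -1.68 ± 0.25 (adjusted p = 0.000110) and Psma7 of -1.07 ± 0.18 (adjusted p = 0.000380) in experiment 1, and Psma4 of -1.02 ± 0.22 (adjusted p = 0.00652) in experiment 2. Of 10 activators and assembly factors, Psme3 rose in both experiments (1.01 ± 0.18 and 0.71 ± 0.22, adjusted p = 0.000464 and 0.0478), and the assembly factor Psmg3 fell in experiment 1 (-0.99 ± 0.22, adjusted p = 0.00253). Psme1 and Psme2, which encode the interferon-inducible PA28 activator, had log2 fold changes of 0.40 ± 0.16 and 0.11 ± 0.22 in experiment 1 (adjusted p = 0.0675 and 0.733) and of 0.37 ± 0.20 and 0.64 ± 0.28 in experiment 2 (adjusted p = 0.286 and 0.182).

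Of 17 transcription factors listed for class I genes, 9 rose and 1 fell in experiment 1, and 2 rose and 1 fell in experiment 2 (median 0.62 and 0.37). Irf1, which acts on class I and immunoproteasome promoters, averaged 161 ± 48.6 CPM in untreated aged and 39.5 ± 11.1 CPM in young ovaries of experiment 1 and rose in both experiments (2.05 ± 0.29 and 1.16 ± 0.29, adjusted p = 8.46e-05 and 0.0192). Irf8 rose in both as well (1.78 ± 0.23 and 0.98 ± 0.26, adjusted p = 3.45e-05 and 0.0240), and Irf9 in experiment 1 (1.72 ± 0.20, adjusted p = 1.32e-05). Nfyb fell in both (-0.75 ± 0.20 and -0.77 ± 0.18, adjusted p = 0.00886 and 0.0114). Of the interferon gamma list, 11 of 16 rose and 1 fell (Ptpn2, a phosphatase that dampens the signal, -1.24 ± 0.29, adjusted p = 0.00367) in experiment 1, and 4 of 15 tested rose in experiment 2 (median 1.67 and 0.76). Cxcl10, a chemokine, rose in both (5.28 ± 0.70 and 3.83 ± 0.72, adjusted p = 3.98e-05 and 0.00311), as did the guanylate-binding protein Gbp2 (2.06 ± 0.31 and 1.75 ± 0.39, adjusted p = 0.000122 and 0.00917) and the GTPase Igtp (3.32 ± 0.50 and 1.24 ± 0.35, adjusted p = 0.000127 and 0.0338). The receptor chain Ifngr1 was the other gene to rise in experiment 2 (1.22 ± 0.22, adjusted p = 0.00239). Ifng itself had 0 to 58 counts per library in untreated aged ovaries and 0 or 1 in young ovaries of experiment 1 (adjusted p = 0.00573). In experiment 2 it had 0 to 5 counts in untreated aged ovaries and none in young ovaries, too few to be tested. Of 6 receptors that read class I, 5 rose in experiment 1 and 3 in experiment 2, with the T cell coreceptor Cd8a at 15.2 ± 5.97 CPM in untreated aged and 0.523 ± 0.394 CPM in young ovaries of experiment 1. Pirb, an inhibitory receptor for class I, changed by 2.90 ± 0.38 (adjusted p = 3.72e-05) and 2.58 ± 0.35 (adjusted p = 0.000450), and Klrc1 by 3.44 ± 0.59 (adjusted p = 0.000339) and 2.20 ± 0.61 (adjusted p = 0.0300).

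Leukocyte RNA moved with the members in the age comparisons. All 12 pan-leukocyte markers rose with age in both experiments, and their summed level was 1771 to 2586 CPM in untreated aged and 219 to 406 CPM in young ovaries of experiment 1. In experiment 2 it was 1289 to 2135 CPM in untreated aged and 237 to 351 CPM in young ovaries, and no marker of the list was at 0. Ptprc, which encodes CD45, had log2 fold changes of 1.90 ± 0.25 (adjusted p = 3.68e-05) and 1.92 ± 0.34 (adjusted p = 0.00223), and the median over the 12 markers was 2.88 and 2.59, against 2.17 and 1.70 over the members. All 7 T cell markers and 6 of 7 macrophage markers rose in experiment 1, and 6 of 7 of each in experiment 2, and all 4 B cell markers rose in both. The T cell markers summed to 56.5 to 211 CPM in untreated aged and 10.4 to 17.1 CPM in young ovaries of experiment 1, and to 45.5 to 145 CPM in untreated aged and 8.84 to 24 CPM in young ovaries of experiment 2. More leukocytes and more class I RNA per cell cannot be told apart in bulk ovary RNA, and the part of leukocyte number in the members' change was not tested.

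**Figure D4:**
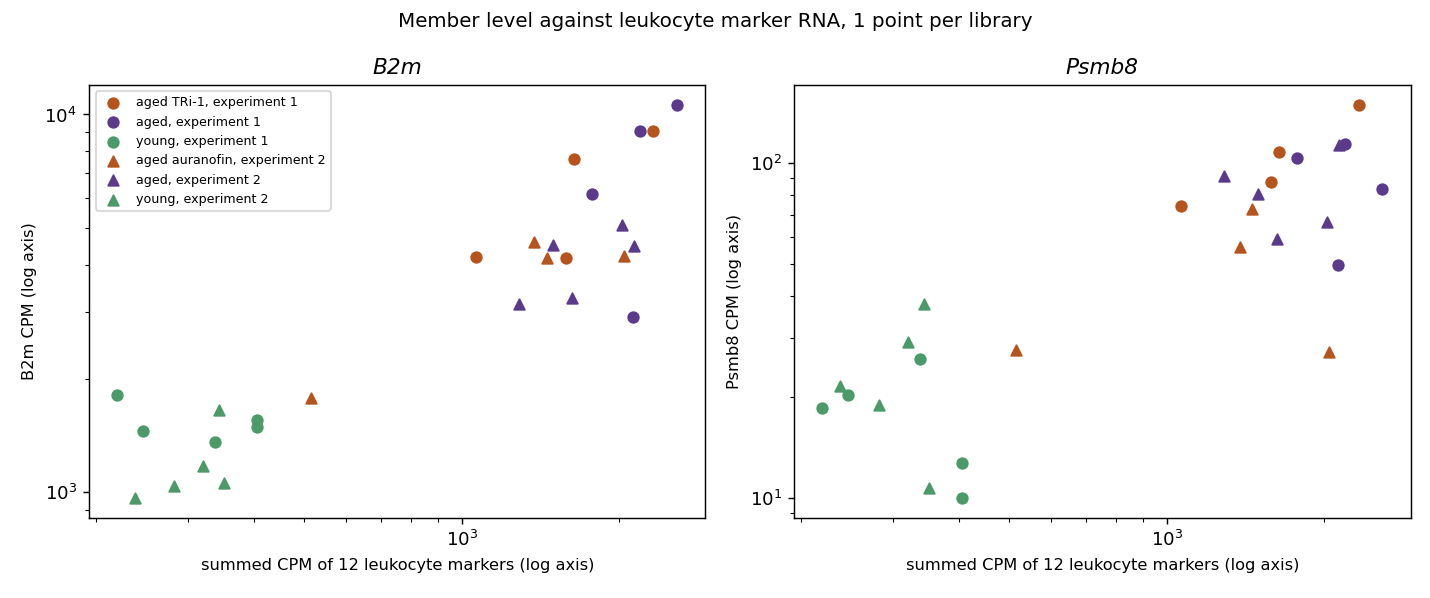
CPM of B2m and of Psmb8 against the summed CPM of 12 pan-leukocyte markers, 1 point per library on log axes (circles, experiment 1; triangles, experiment 2; colours give the group). The young libraries, at 219 to 406 CPM of marker RNA, lie at the lower left and the untreated aged ones, at 1289 to 2586 CPM, at the upper right, with the auranofin-treated ovary of replicate 3 between them at 514 CPM.

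Next, TRi-1-treated aged ovaries were set against untreated aged ovaries. No member passed an adjusted p of 0.05 (edgeR), where 0.418% of 16028 genes did. At an unadjusted p under 0.05 there were 2 members, both higher, and 2650 of all genes. DESeq2 called 1 member and 3.66% of all genes. That gene was Psmb9, whose product takes the place of the Psmb6 subunit. It was at 132, 62.6, 79.7 and 55.7 CPM in TRi-1-treated ovaries, against 25.6, 53.9, 27.3 and 46.3 CPM in untreated aged ovaries. Every treated library was above every untreated one, by a small margin between 55.7 and 53.9 CPM. Such a lack of overlap held for 1 of 10 members, close to the 8.62% of 17484 genes without overlap here. In 4.35% of these genes every treated library was the higher. The log2 fold change of Psmb9 was 1.08 ± 0.30 (adjusted p = 0.0939), with a 95% interval from 0.45 to 1.71, and DESeq2 gave 1.10 (adjusted p = 0.0216). The ratio of Psmb9 to Psmb6 within libraries was -0.35, -1.87, -0.84 and -2.01 in treated ovaries, against -3.85, -2.04, -3.07 and -2.12 in untreated aged ovaries on the log2 scale. This was a difference of 1.51 with no overlap (exact permutation test, two-sided, p = 0.0286, the smallest that 4 against 4 can give, adjusted 0.119). Leaving out single libraries gave differences from 1.14 to 1.75, and all 8 of these tests lost the unadjusted p under 0.05. The groups stayed free of overlap in each of them. With fewer libraries an exact test has fewer possible p-values, so these losses cannot tell whether the difference rests on a single library. H2-K1 was at 1451, 867, 801 and 617 CPM in TRi-1-treated ovaries, against 620.3, 511, 665 and 692 CPM in untreated aged ovaries, a log2 fold change of 0.56 ± 0.26 (adjusted p = 0.288). The other members had log2 fold changes between -0.83 (Tap2) and 0.40 (H2-D1), and the pan-leukocyte markers had a median of -0.36, summing to 2327, 1582, 1636 and 1064 CPM in TRi-1-treated ovaries, against 2127, 2194, 2586 and 1771 CPM in untreated aged ovaries. The part of leukocyte RNA in these values was not tested. One other gene of the pathway lists passed: the constitutive subunit Psmb3 averaged 238 ± 83.7 CPM in TRi-1-treated and 98.1 ± 19.9 CPM in untreated aged ovaries (1.26 ± 0.26, adjusted p = 0.0467).

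Auranofin-treated aged ovaries were compared with untreated aged ovaries of experiment 2. No member passed (edgeR), where 0.0184% of 16309 genes did. DESeq2 also called none, where it called 0.466% of genes. At an unadjusted p under 0.05 there were 2 members, both lower, and 1148 of all genes, 525 of them lower. Psmb10 was at 57.3, 83.5, 65.8 and 97.5 CPM in auranofin-treated ovaries, against 110.4, 154, 113, 149.7 and 83.3 CPM in untreated aged ovaries, a log2 fold change of -0.69 ± 0.23 (adjusted p = 0.5). Psmb8 was at 56.2, 72.8, 27.7 and 27.2 CPM in auranofin-treated ovaries, against 91, 59.1, 113, 66.7 and 80.6 CPM in untreated aged ovaries, a log2 fold change of -0.84 ± 0.37 (adjusted p = 0.682). The treated and untreated ranges overlapped for both. B2m was at 4589, 4170.3, 1778 and 4210.1 CPM in auranofin-treated ovaries, with the ovary of replicate 3 far below the others, and its log2 fold change was -0.16 ± 0.28 with a 95% interval from -0.75 to 0.42. In H2-K1 and H2-D1 the values split within the treated group: H2-K1 was at 1076, 1046, 489.7 and 423 CPM and H2-D1 at 1036, 902, 327 and 474 CPM, with fitted changes of -0.09 ± 0.35 and -0.01 ± 0.35. The intervals of these changes, -0.83 to 0.65 and -0.76 to 0.73, leave room for changes in either direction. Pan-leukocyte markers summed to 1378, 1456, 514 and 2044 CPM in auranofin-treated ovaries, with the least in replicate 3, the lowest in B2m, and the most in replicate 4, the lowest in H2-K1 and Psmb8.

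The treated aged ovaries were also set against the young ovaries, which served as controls for the age comparisons too. TRi-1-treated ovaries had 9 of 10 members higher than young ovaries, all but Tap2, where 10.9% of genes were higher. Tap1 had a log2 fold change of 3.37 ± 0.27 (adjusted p = 1.92e-06), H2-K1 of 2.72 ± 0.25 (adjusted p = 6.45e-06) and Psmb9 of 2.37 ± 0.29 (adjusted p = 3.95e-05). Auranofin-treated ovaries had 4 of 10 members higher than young ovaries, where 5.42% of genes were higher. These were B2m (1.64 ± 0.28, adjusted p = 0.00191), H2-K1 (2.07 ± 0.36, adjusted p = 0.00213), H2-D1 (2.06 ± 0.36, adjusted p = 0.00232) and Nlrc5 (1.54 ± 0.39, adjusted p = 0.0206). For the inducible subunits no call was made there: Psmb8 had a log2 fold change of 0.96 ± 0.36 (adjusted p = 0.114), Psmb9 of 0.87 ± 0.35 (adjusted p = 0.139) and Psmb10 of 0.45 ± 0.22 (adjusted p = 0.242). Nlrc5 missed the threshold when the young ovary of replicate 2 or the treated ovary of replicate 1 or 4 was left out (adjusted p = 0.0507, 0.0876 and 0.0504). The young ovary of replicate 3 was the highest of its group for Tap1 and Psmb8. Without it, both passed (1.39 and 1.19, adjusted p = 0.00342 and 0.0456), giving 6 members. The share of all genes higher in that fit is not given here. All 12 pan-leukocyte markers were higher in both treated groups than in young ovaries, summing to 1064 to 2327 CPM with TRi-1 and 514 to 2044 CPM with auranofin.

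The difference of the auranofin effect and the TRi-1 effect was then tested over all 27 libraries. The drugs were given in separate experiments, so drug and experiment cannot be told apart, and doses are not given. No member passed (edgeR), where 0.0172% of 17484 genes did, and 2 members and 1900 of all genes had an unadjusted p under 0.05. The fitted change of Psmb9 was lower with auranofin than with TRi-1, by a log2 difference of -1.68 ± 0.48 (95% interval -2.67 to -0.69, adjusted p = 0.207). For Psmb8 the difference was -1.09 ± 0.50 (adjusted p = 0.421). With the within-group component as a covariate, a fit chosen after seeing the data, Psmb9 passed (-1.76, adjusted p = 0.00833). The component came from these same libraries, and the share of all genes called in that fit is not given here. DESeq2 called no member, where it called 0.532% of genes.

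Across the 6 groups, every member had its lowest mean log2 CPM in a young group, and 9 of 10 had it in the young ovaries of experiment 1, B2m being the exception. The highest mean was in TRi-1-treated ovaries for 7 members, in untreated aged ovaries of experiment 1 for B2m and Psmb10, and in untreated aged ovaries of experiment 2 for Tap2. Between treated and untreated aged ovaries of 1 experiment, the library values of all members overlapped except those of Psmb9 with TRi-1, where 8.62% of 17484 genes did not overlap with TRi-1 and 3.4% with auranofin. The Tap1 libraries of both aged groups of experiment 1 lay above those of both aged groups of experiment 2. The mean profile of the members, centred over the 6 groups in log2 CPM, was 0.94 in TRi-1-treated, 0.63 in untreated aged and -1.36 in young ovaries of experiment 1, and 0.22 in auranofin-treated, 0.57 in untreated aged and -1.0 in young ovaries of experiment 2. Ranking 11329 other genes above a mean level of 5 CPM, the nearest profiles by root mean square difference were those of Cd86 (0.093), Abcg1 (0.138), Sh2d1b1 (0.155), Rinl (0.155) and Apol10b (0.158), against a median of 0.89. Cd86 encodes a costimulatory ligand of antigen-presenting cells and Abcg1 a sterol exporter.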

How the data were processed

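The submitters deposited a table of raw counts per gene for 27 ovary libraries made by 3' tag sequencing, with values that are whole numbers in every column. Per the submitters' processing notes, mm10, DESeq2 and RSEM 1.2.3 were used, with no roles given, and the annotation, strand setting and filters of counting are not given in the sources used here. Gene symbols came from GENCODE M21 (51596 of 51789 IDs). Counts were tested with edgeR 4.0.16 (filterByExpr, TMM, quasi-likelihood F test, Benjamini-Hochberg adjustment over all tested genes, threshold 0.05) in R 4.3.3, with the 3 groups of an experiment in 1 fit of 13 or 14 libraries and both difference tests in 1 fit of 27. SE is the log2 fold change divided by the root of F. Ratios used log2 counts with a pseudocount of 0.5. DESeq2 1.42.0 and limma 3.58.1 were alternatives. Figures used matplotlib 3.10.9 and Python 3.11.15. The fits were tested on simulated data with known answers.

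The members and gene lists were chosen with earlier results of these data known. Named genes were the members, up to 3 genes of each list with the smallest p with age in experiment 1, list genes called under a treatment, Ifng, Irf1, Psmb5, Psmb6, Psmb7 and Ptprc, and the 5 nearest profiles. H2-Q4, H2-Q6, Tapbpl, Psme2, Nfyb, Ptpn2, Ifngr1 and the markers listed at 0 were named after their values were seen. One gene that this rule names is not reported here. P-values measure the spread between the deposited samples.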

Additional observations from a re-analysis of the deposited data

Results flagged for a closer look

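Of 60 tests of a member in a group, 3 held a library whose gap to the nearest other was large for the group's range. Chance gives about 1 in 20, so the count of flags is no more than that share. B2m was at 1777.5 CPM in the auranofin-treated ovary of replicate 3, where the others of the group were at 4170.3 to 4589.2 CPM, and the pan-leukocyte markers of that ovary summed to 514 CPM, the least of its group. Tapbp was at 220.9 CPM in the auranofin-treated ovary of replicate 4, where the others were at 90.0 to 99.2 CPM, and this ovary had the most adipocyte marker RNA, 10592 CPM. H2-K1 was at 70.71 CPM in the young ovary of replicate 2 in experiment 2, where the others were at 172 to 244 CPM. On the first within-group component, the auranofin-treated ovary of replicate 4 scored -0.498 and this young ovary -0.382, the lowest scores of all libraries. The auranofin-treated ovary of replicate 3 scored 0.0735. What sets these libraries apart was not tested.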

How the results depend on the processing

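The counts of members past the threshold were recomputed under each alternative and without each library, and 168 of them were within 1.5 times the main count. The 6 exceptions were 1 member with TRi-1 by DESeq2 and with the within-group component (Psmb9), 1 member whose age effect differed between experiments by DESeq2 and with the component (Tap1), 1 member whose drug effects differed with the component (Psmb9), and, on leaving out single libraries, a count of 0 to 1 for the difference of age effects (Tap1). Of the members' fold changes, 1636 kept their sign and side of the threshold, 27 gained and 7 lost a call, and 67 turned sign; of the ratios, 281 did so, 2 gained and 25 lost an unadjusted p under 0.05, and 22 turned sign. The labels do not say whether the replicate numbers pair the samples. Over 25 same-numbered pairs the correlation of deviations ran from -0.25 to 0.43 with a median of -0.03. The median over 96 other pairs was 0.03, and low correlations cannot show that samples were unpaired. With a replicate block the counts were 8, 7, 0, 0, 9 and 4 members for age in experiments 1 and 2, TRi-1, auranofin, TRi-1 against young and auranofin against young, and 0 for both differences. The shares of all genes called with the block are not given here, so these counts are not read against them. Under the block the change with auranofin was 0.05 for H2-D1, 0.13 for Tap2 and 0.03 for Nlrc5, and the difference of age effects was -0.06 for H2-K1.

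Among members that passed no threshold, signs turned as follows. For auranofin, limma-voom gave 0.20 for H2-K1, 0.26 for H2-D1, 1.2 for Tap2 and 0.03 for Nlrc5. Without haemoglobin genes the difference of age effects of H2-K1 was -0.01. With the libraries highest in other-tissue markers left out (chosen after seeing the data), TRi-1 gave -0.03 for Tap1 and -0.41 for Nlrc5, auranofin 0.12 for H2-K1, 0.13 for H2-D1 and 0.04 for Tap2, the difference of age effects 0.35 for H2-D1 and 0.42 for Tap2, and that of drug effects 0.27 for Nlrc5. With the component (also chosen after seeing the data), TRi-1 gave 0.10 for Tap2, the difference of age effects -0.01 for H2-K1 and that of drug effects -0.29 for Tap2. By medians the Tap1 to Tap2 ratio with auranofin was 0.67. Leaving out single libraries gave ranges that cross 0 for auranofin in B2m (-0.30 to 0.06), H2-K1 (-0.31 to 0.11), H2-D1 (-0.29 to 0.22), Tap1 (-0.31 to 0.01), Tap2 (-0.85 to 0.47) and Nlrc5 (-0.26 to 0.10), for TRi-1 in B2m (-0.49 to 0.05), Psmb10 (-0.36 to 0.13) and Nlrc5 (-0.10 to 0.47), for the difference of age effects in H2-K1 (-0.19 to 0.14), H2-D1 (-0.24 to 0.08), Tap2 (-0.79 to 0.56) and Psmb10 (-0.23 to 0.15), and for that of drug effects in B2m (-0.24 to 0.28) and Tap2 (-0.08 to 1.27). Ratios did so for H2-K1 to H2-D1 with auranofin (-0.20 to 0.05) and against young (-0.08 to 0.20), Psmb10 to Psmb7 with TRi-1 (-0.30 to 0.71), and Tap1 to Tap2 with age in experiment 2 (-1.3 to 0.48), with auranofin (-1.24 to 0.80), against young (-1.76 to 0.43) and with TRi-1 (-0.91 to 1.53). The cause was not tested.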
